A study of Homo sapiens with 6 samples.

Results

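The genes that restrain Wnt signaling, and those that it switches on as feedback, were read in the human endometrial carcinoma cell line RL95-2, with and without medium conditioned by adipocytes. The list held 10 of the 23228 genes in the count tables, found by symbol and chosen for their role: AXIN2, LGR5, RNF43, ZNRF3, NKD1, KREMEN1, KREMEN2, DKK1, TCF7 and LEF1. Earlier results of these data were known when the list was chosen. The control group was 3 libraries of cells kept in serum-free RPMI and DMEM, mixed 1:1. The ADP-CM group was 3 libraries of cells in which the DMEM was replaced by adipocyte-conditioned medium (ADP-CM), collected from mature adipocytes of human visceral fat. The study took this fat from female patients with a high body mass index. It does not say how many donors or batches of ADP-CM these libraries rest on. Both groups were serum-free and were treated for 24 h. All 6 libraries come from 1 cell line, and the control medium was not conditioned by any other cell, so effects of adipocyte products and of conditioning as such cannot be told apart. The labels do not say whether the 3 replicates were separate cultures, so p-values measure the spread between these libraries, which may be technical. The comparison asks which Wnt feedback and inhibitor transcripts differed after exposure to ADP-CM.

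In canonical Wnt signaling, a Wnt ligand bound to a Frizzled receptor and an LRP5 or LRP6 co-receptor stops the destruction complex from degrading beta-catenin. Beta-catenin then enters the nucleus and activates genes together with the DNA-binding factors of the TCF and LEF family. Many of those genes act back on the pathway: AXIN2 rebuilds the destruction complex, RNF43 and ZNRF3 are membrane ubiquitin ligases that remove Frizzled from the cell surface, and NKD1 binds Dishevelled. LGR5 is a receptor for R-spondins, which keep RNF43 and ZNRF3 from acting. DKK1 is a secreted inhibitor that occupies LRP5 and LRP6, and KREMEN1 and KREMEN2 are its membrane partners. In the endometrium the pathway is tied to epithelial growth, and its activation is common in endometrioid carcinoma.

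The libraries held between 16262614 and 18363033 reads on genes. Of the 10 genes, 7 had enough reads to be tested among 12663 genes, and AXIN2, TCF7 and LGR5 did not. The epithelial markers EPCAM, CDH1, KRT8, KRT18 and KRT19 were present in every library, as was PAX8 of Mullerian epithelium, while SOX17 was at 0 reads. Of the 8 epithelial markers 7 were tested, and 1 had under 20 reads in every library. The 8 summed to 4110 to 4180 CPM, the read count scaled to library size, in control and 3430 to 3480 in ADP-CM. All 8 adipocyte markers had under 20 reads in every library, with ADIPOQ, LEP and CIDEA at 0. Their summed level was 0.616 to 1.18 CPM in control and 0.939 to 1.20 in ADP-CM. The 7 stromal markers summed to 61.5 to 68.4 and 78.3 to 79.1 CPM, with THY1 at 0, and the 6 leukocyte markers to 7.02 to 8.47 and 9.98 to 12.2. The 5 endothelial markers summed to 60.9 to 67.1 and 54.6 to 62.2 CPM, with KDR at 0. The 5 markers of endometrial and Mullerian epithelium summed to 151 to 163 CPM in control and 185 to 201 in ADP-CM. In edgeR 5 epithelial markers were lowered, 2 Mullerian, 1 stromal and 1 leukocyte marker were raised, and no adipocyte or endothelial marker passed. Reads on no annotated gene averaged 10.3% of a control library and 11.5% of an ADP-CM library. What these shifts contribute to the results was not tested. In bulk RNA, fewer cells that use a gene and less of its RNA per cell cannot be told apart.

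Of the 7 tested genes, KREMEN2 and RNF43 were raised by ADP-CM and KREMEN1 was lowered. A gene was called where its adjusted p-value (quasi-likelihood fit of edgeR, adjusted by Benjamini-Hochberg across every tested gene) was below 0.01. Of all 12663 tested genes, 13.5% were raised and 13% lowered in this way. By DESeq2, KREMEN2 was raised and KREMEN1 lowered, against 8.39% raised and 7.77% lowered of all genes it tested. At an unadjusted p under 0.05 edgeR had 4 of the 7, LEF1 being the fourth, beside 45% of all. KREMEN2 alone also passed a fold change of 1.5, which 2.27% of all tested genes did in either direction. DKK1, ZNRF3, NKD1 and LEF1 did not pass. The groups did not overlap in normalized level for 6 of the 7, 4 higher and 2 lower in ADP-CM, against 45.5% of all tested genes (22.7% higher and 22.8% lower). With shares of this size among all genes, a few called genes out of 7 are not read as a result about the list, which was not tested as a set.

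**Figure D1:**
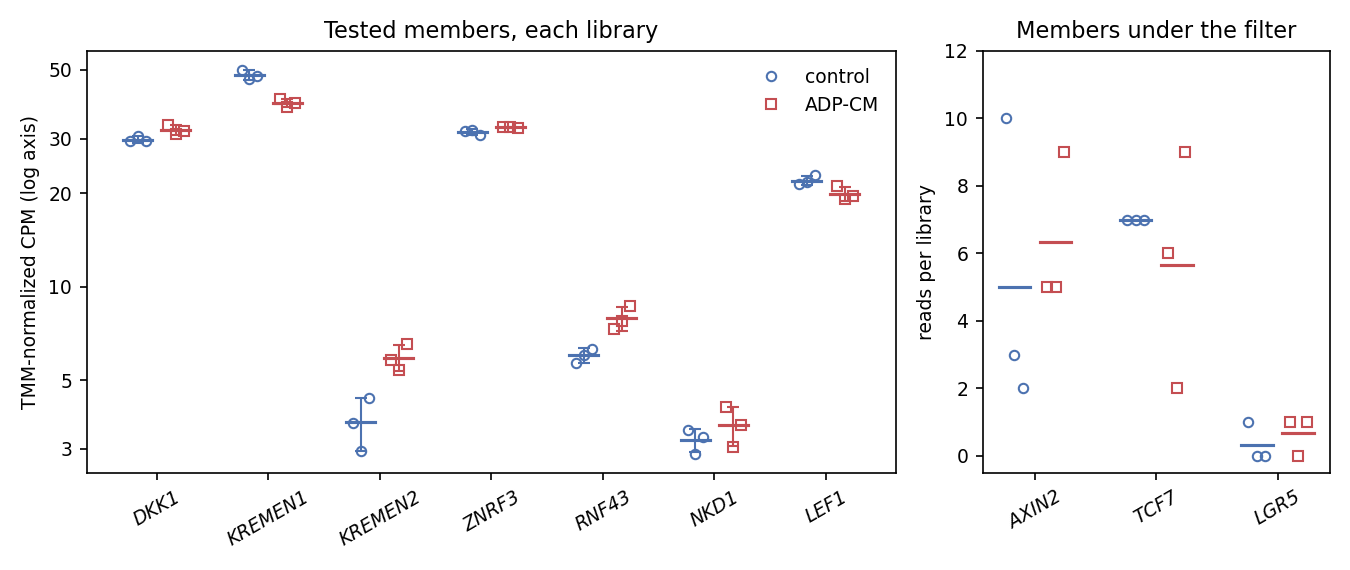
Left, TMM-normalized CPM on a log axis of the 7 tested genes in each control library (circles) and ADP-CM library (squares), with the mean and SD of each group (n = 3). Right, reads per library of the 3 genes under the filter, with group means. KREMEN2 and RNF43 lie higher and KREMEN1 lower in all 3 ADP-CM libraries, and no library holds more than 10 reads of AXIN2, TCF7 or LGR5.

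The Kremen receptors, which take DKK1-bound LRP5 and LRP6 off the cell surface, went in opposite directions. KREMEN2 (chromosome 16, 3014217 to 3018381, GRCh37) stood at 3.64, 2.96 and 4.39 CPM in the control libraries and at 5.80, 5.40 and 6.52 in the ADP-CM libraries. Every ADP-CM library was above every control library. The mean rose from 3.66 ± 0.713 to 5.91 ± 0.571 CPM (SD, n = 3), 0.69 on the log2 scale (standard error 0.15). This is 1.61-fold, with a 95% interval of 1.32 to 1.98 (edgeR, adjusted p-value 0.000114). The values rest on 184 reads in the 3 control libraries and 324 in the 3 ADP-CM libraries. The rise stayed past the p-value limit whichever library was left out, at log2 fold changes of 0.55 to 0.84, but it fell under a fold change of 1.5 without control replicate 2 (0.55). DESeq2 gave it an adjusted p-value of 0.00516.

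KREMEN2 lies opposite PKMYT1, a cell cycle kinase gene on the other strand that covers 15.3% of its exonic bases, and the strand setting of the counting is not given in the sources used here. PKMYT1 had 2098 to 2323 reads in each library over the whole gene. Its level was 128.2 ± 1.31 CPM in the control group and 121.4 ± 4.48 with ADP-CM (SD, n = 3), with a log2 fold change of -0.08 (edgeR, adjusted p-value 0.0411). Reads in the shared bases were not counted apart, so what they add to the KREMEN2 count was not tested.

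KREMEN1 (chromosome 22, 29469023 to 29564321) was measured at 50.0, 46.6 and 47.8 CPM in control and at 40.2, 38.0 and 39.2 in ADP-CM, again without overlap. Its mean fell from 48.1 ± 1.75 to 39.1 ± 1.13 CPM (SD, n = 3). The log2 fold change was -0.30 with a standard error of 0.048, or 0.813-fold with a 95% interval of 0.760 to 0.869, and the adjusted p-value by edgeR was 6.88e-07. This was the firmest of the 3 calls, and it held without each library in turn (log2 fold changes of -0.32 to -0.27) and with DESeq2 (adjusted p-value 6.28e-05). No other annotated gene shares exonic bases with KREMEN1.

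Because both Kremen genes were counted in the same libraries, the share of KREMEN2 in their joint reads does not depend on the scaling between libraries. It was 6.77%, 5.97% and 8.41% in the control libraries, with 95% Wilson intervals that together run from 4.56% to 10.4%. In the ADP-CM libraries it was 12.6%, 12.5% and 14.3%, with intervals from 10.3% to 16.8%. The mean share went from 7.05% ± 1.24 to 13.1% ± 1.01 (SD, n = 3), a difference of 6.06 percentage points. An exact two-sided permutation test gave p = 0.1, the smallest that 3 libraries against 3 allow. With KREMEN2 higher and KREMEN1 lower in every ADP-CM library, this outcome was already fixed. It restates the calls of the Kremen genes and adds no further test. The intervals cover counting error only, since the reads carry no molecular identifiers. KREMEN1 stayed the more abundant transcript in every library.

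**Figure D2:**
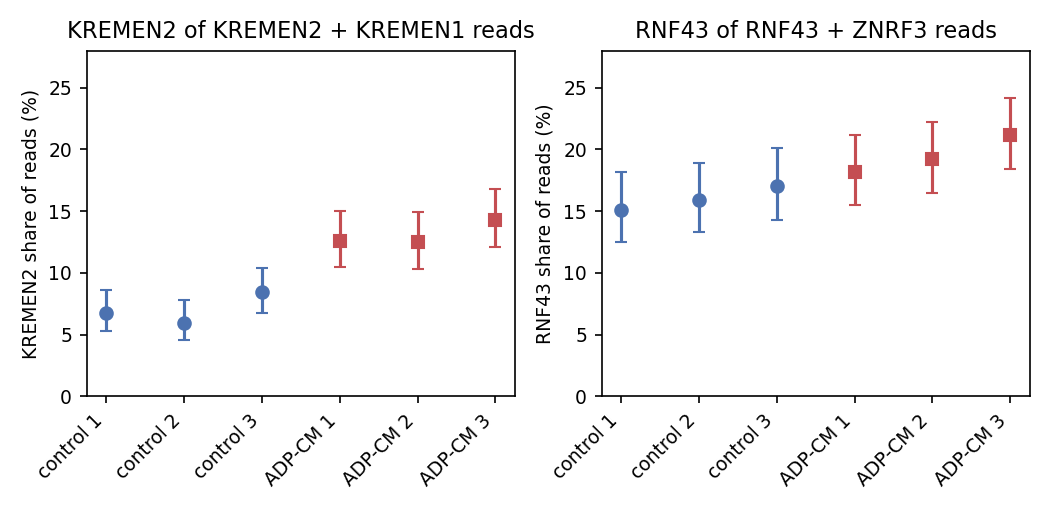
Share of KREMEN2 in the reads of KREMEN2 and KREMEN1 (left) and of RNF43 in the reads of RNF43 and ZNRF3 (right), in percent, for each control library (circles) and ADP-CM library (squares). Bars are 95% Wilson intervals of counting error. The KREMEN2 share is at most 8.41% in control and at least 12.5% in ADP-CM, and the RNF43 share at most 17% and at least 18.2%. In both panels the intervals of the nearest libraries overlap, for KREMEN2 only between 10.3% and 10.4%.

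DKK1, the ligand of the Kremen receptors (chromosome 10, 54074041 to 54077802), was the most abundant of the 10 genes per length of transcript. It was read at 29.4, 30.7 and 29.4 CPM without ADP-CM and 33.3, 31.0 and 31.7 with it. The groups did not overlap, but the nearest libraries, at 30.7 and 31.0 CPM, were close. The mean was 29.8 ± 0.749 CPM in the control group and 32.0 ± 1.14 with ADP-CM (SD, n = 3), and the difference of 0.10 on the log2 scale did not pass (adjusted p-value 0.147 by edgeR). Its 95% interval, 0.994-fold to 1.16-fold, leaves out a rise as large as that of KREMEN2. DKK1 shares 10.2% of its exonic bases with PRKG1-AS1 on the other strand.

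The membrane ubiquitin ligases are paralogs. RNF43 (chromosome 17, 56431037 to 56494956) was at 5.67, 6.04 and 6.32 CPM in control and at 7.29, 7.74 and 8.70 in ADP-CM. All 3 ADP-CM libraries were above the control range. The mean rose from 6.01 ± 0.324 to 7.91 ± 0.719 CPM (SD, n = 3), 0.40 on the log2 scale (standard error 0.12). This is 1.32-fold with a 95% interval of 1.12 to 1.55 (edgeR, adjusted p-value 0.00525). The call is fragile: edgeR's adjusted p-value became 0.0309 without control replicate 1, 0.0170 without control replicate 2, 0.0101 without ADP-CM replicate 2 and 0.0445 without ADP-CM replicate 3. DESeq2 gave 0.0596. The log2 fold change itself stayed between 0.32 and 0.45. In the annotation 68.4% of the exonic bases of RNF43 are shared with an unnamed gene on its strand that has no line in the count tables.

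ZNRF3 (chromosome 22, 29279560 to 29453476) was higher than RNF43 in reads, at 31.8, 32.0 and 30.8 CPM without ADP-CM and 32.8, 32.7 and 32.4 with it. The groups lay next to each other with little space between them. The mean was 31.5 ± 0.626 CPM in the control group and 32.6 ± 0.206 with ADP-CM (SD, n = 3). The log2 fold change of 0.05 did not pass (adjusted p-value 0.507 by edgeR), and its 95% interval of 0.960-fold to 1.11-fold leaves room for a small change only. The share of RNF43 in the reads of both ligases was 15.1%, 15.9% and 17% in control and 18.2%, 19.2% and 21.2% in ADP-CM. The means were 16.0% ± 0.944 and 19.5% ± 1.52 (SD, n = 3), 3.49 percentage points apart (exact two-sided permutation test, p = 0.1, the smallest possible). This share rests on the same reads as the RNF43 call and is no separate test of it. ZNRF3 and KREMEN1 are close neighbours on chromosome 22, on the same strand with a gap of 15546 bases between them that holds 1 other coding gene. KREMEN1 was lowered and ZNRF3 was not past the threshold. The difference between them was not tested.

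NKD1 (chromosome 16, 50582307 to 50683160) was low and variable, at 3.45, 2.90 and 3.27 CPM without ADP-CM and 4.09, 3.05 and 3.59 with it. The groups overlapped. Its log2 fold change of 0.16 had a 95% interval of 0.885-fold to 1.40-fold (edgeR, adjusted p-value 0.495), so a change within it was not detectable from the 161 and 196 reads in the groups.

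**Figure D3:**
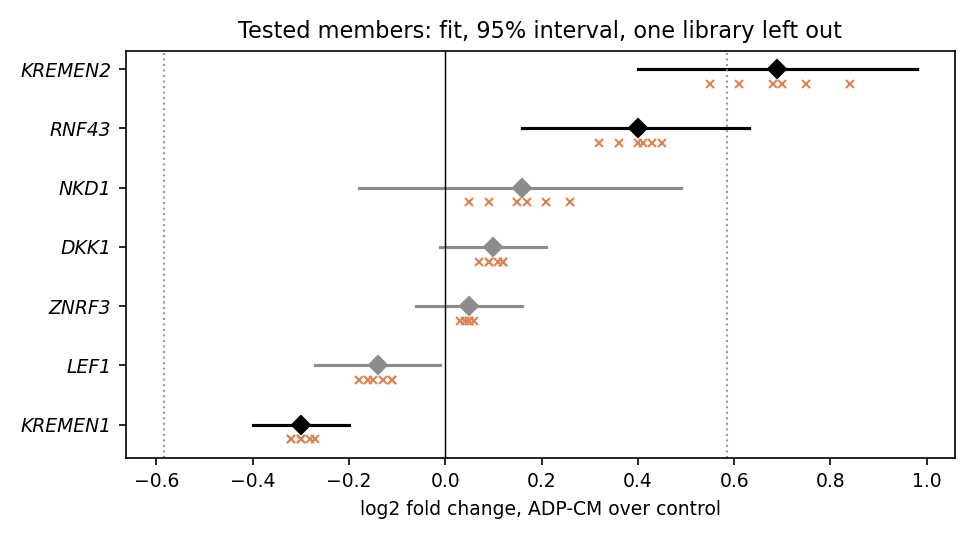
Log2 fold change of ADP-CM over control for the 7 tested genes (diamonds) with 95% intervals (lines), black where the adjusted p-value is under 0.01 and grey otherwise. Crosses show the values with 1 library left out, and dotted lines mark a fold change of 1.5. Only KREMEN2, at 0.69, lies past a dotted line, and KREMEN1, at -0.30, is the called gene that was lower.

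LEF1 and TCF7 encode DNA-binding partners of beta-catenin and are themselves Wnt targets in many tissues. LEF1 (chromosome 4, 108968701 to 109090112) was at 21.4, 21.7 and 22.9 CPM without ADP-CM and 21.1, 19.2 and 19.6 with it. The ADP-CM libraries were all lower, the nearest by a small margin. The mean was 22.0 ± 0.772 CPM in the control group and 19.99 ± 0.978 with ADP-CM (SD, n = 3), and the log2 fold change of -0.14 (0.829-fold to 0.995-fold) did not pass, with an adjusted p-value of 0.0906 by edgeR. Both genes have isoforms that lack the beta-catenin binding part and act as repressors, and counts per gene do not separate these from the full-length forms. LEF1 shares 5.2% of its exonic bases with LEF1-AS1 on the opposite strand.

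TCF7 (chromosome 5, 133450372 to 133487556) had 7 reads in each control library and 6, 2 and 9 in the ADP-CM libraries. AXIN2 (chromosome 17, 63524681 to 63557766), a widely used readout of beta-catenin activity, had 10, 3 and 2 reads in control and 5, 5 and 9 in ADP-CM. The libraries of the 2 groups overlapped for both genes. AXIN2 shares 25.3% of its exonic bases with a same-strand gene that has no line in the tables, and TCF7 2.1% with SKP1 on the opposite strand. Fitted without a filter on low counts, AXIN2 had a log2 fold change of 0.21 (95% interval -0.94 to 1.36, adjusted p-value 0.832 by edgeR) and TCF7 one of -0.42 (-1.51 to 0.65, adjusted p-value 0.613). At this depth changes smaller than these intervals were not detectable. LGR5 (chromosome 12, 71833578 to 71980090) had 1, 0 and 0 reads in control and 1, 0 and 1 in ADP-CM, at or under the floor of 3 reads in every library, so no fold is given. These 3 transcripts, often read as signs of Wnt activity, were at or near the limit of detection in both groups, while LEF1, ZNRF3 and DKK1 were not.

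Per kilobase of annotated exon, the control levels ran from DKK1 (13.4 ± 0.337 CPM per kb) through KREMEN1 (6.003 ± 0.218), ZNRF3 (4.51 ± 0.0896), LEF1 (4.10 ± 0.144), KREMEN2 (1.57 ± 0.305), RNF43 (0.949 ± 0.0511) and NKD1 (0.185 ± 0.0162) down to AXIN2 (0.0584 ± 0.0524), TCF7 (0.0415 ± 0.00115) and LGR5 (0.00393 ± 0.00681), all SD with n = 3. AXIN2 and TCF7 did not differ beyond their spread. Per kilobase of coding sequence, LEF1 stood above ZNRF3 and TCF7 above AXIN2, and the other places in the order were unchanged. In ADP-CM the level of KREMEN1 was 4.88 ± 0.141 CPM per kb of exon, next to ZNRF3 at 4.67 ± 0.0295. NKD1 has 17359 exonic and 1410 coding bases in this annotation. The reads may have been counted on another model, so its level per length is uncertain.

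RefSeq promoter windows, 250 bases before and 50 after a start site, were given for 4 of the 10 genes (DKK1, LEF1, RNF43 and TCF7). The windows of DKK1 and RNF43 are shown because DKK1 is the ligand of the Kremen pair and RNF43 the raised gene with a window. Capitals mark CTTTG or its reverse complement CAAAG, the core letters of the TCF/LEF element, searched on both strands. The sequences, from the RefSeq table on GRCh38.p14, matched GRCh37 exactly once, and the positions are those of GRCh37. The DKK1 window is chr10:54073791-54074090 on the plus strand, and the RNF43 windows, upstream and internal, are chr17:56494846-56495145 and chr17:56480033-56480332 on the minus strand.
DKK1: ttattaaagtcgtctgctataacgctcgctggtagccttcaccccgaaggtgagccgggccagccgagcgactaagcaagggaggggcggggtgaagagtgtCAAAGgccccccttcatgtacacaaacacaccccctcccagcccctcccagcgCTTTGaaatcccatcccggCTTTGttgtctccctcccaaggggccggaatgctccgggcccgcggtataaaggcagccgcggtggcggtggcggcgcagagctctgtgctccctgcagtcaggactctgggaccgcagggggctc
RNF43 upstream: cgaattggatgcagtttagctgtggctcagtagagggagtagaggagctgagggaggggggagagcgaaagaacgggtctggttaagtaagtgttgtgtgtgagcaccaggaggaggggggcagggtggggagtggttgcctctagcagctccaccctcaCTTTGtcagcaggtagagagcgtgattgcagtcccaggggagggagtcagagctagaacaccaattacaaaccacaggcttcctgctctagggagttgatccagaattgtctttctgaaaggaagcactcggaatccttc
RNF43 internal: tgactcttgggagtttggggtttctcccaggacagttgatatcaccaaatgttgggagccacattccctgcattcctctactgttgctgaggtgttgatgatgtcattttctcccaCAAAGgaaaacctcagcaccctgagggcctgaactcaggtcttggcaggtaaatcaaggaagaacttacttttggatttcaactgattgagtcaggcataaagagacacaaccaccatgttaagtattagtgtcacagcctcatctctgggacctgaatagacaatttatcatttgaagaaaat
The core was present 3 times in the DKK1 window and once in each RNF43 window, in windows of which 47.5% hold it among all 35116 promoters in the table. The longer CTTTGAA, which contains the core, was found in the DKK1 window, its letters 95 to 89 bases before the start site, and is held by 4.43% of all promoters. CTTTGAT (2.62% of promoters) was in none of the 6 windows of these 4 genes. Neither was TTCNNNGAA, the core of sites bound by STAT factors (7.66%). The core of the TCF/LEF element stood 90 to 86 bases before the upstream RNF43 start and, as CAAAG, 134 to 130 bases before the internal start. These matches are of letters in the reference sequence and were not measured as bound sites.

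A further 114 genes of the pathway were listed by role, and 77 of them were tested. Of these, 16 were raised and 10 lowered by the same limit in edgeR, with a median log2 fold change of 0.02 against -0.0023 over all tested genes. This is 26 of 77 beside 26.5% of all tested genes called in either direction. By direction, 13.5% of all tested genes were raised and 13% lowered, and the counts of each list below stand beside these shares. Only APCDD1 and WNT10A, 2 of the 77, also passed a fold change of 1.5, both lower in ADP-CM. Of all tested genes, 2.27% passed both limits in either direction, and 1.14% were lowered.

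Among the other extracellular inhibitors, 4 of 16 were tested, 1 was raised and 1 lowered, and the median of the list was -0.10 on the log2 scale. SFRP1, a secreted decoy for Wnt ligands and the most abundant of them in reads, rose from 165.2 ± 3.86 to 182.9 ± 1.26 CPM (SD, n = 3), which is 0.15 on the log2 scale. APCDD1, a membrane inhibitor that is itself a Wnt target, fell from 7.11 ± 1.01 to 3.59 ± 0.0598 CPM (SD, n = 3), -0.98 on the log2 scale (edgeR, adjusted p-value 2.55e-08). A further 7 of the 16, among them WIF1, FRZB, SFRP5 and SOST, had no read in any library.

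Of the 21 ligand and secretion genes 10 were tested, 1 was raised and 2 were lowered, and the median of the list was -0.09 on the log2 scale. WNT10B rose from 16.5 ± 1.47 to 20.7 ± 2.32 CPM and WNT10A fell from 5.89 ± 0.288 to 2.64 ± 0.404 CPM (SD, n = 3), log2 fold changes of 0.33 and -1.15. WNT7B, the ligand with the most reads, went from 242.8 ± 1.44 to 229.7 ± 6.34 CPM (SD, n = 3), which is -0.08 on the log2 scale. The WNT10B call was lost without control replicate 1 (0.26 on the log2 scale) or ADP-CM replicate 3 (0.23), with edgeR's adjusted p-values of 0.0103 and 0.0172, and with DESeq2 (0.0146). Of the 6 fits with a library left out, the WNT7B call held only in the one without ADP-CM replicate 3. Its edgeR adjusted p-value was 0.0320, 0.0218 and 0.0321 without control replicates 1, 2 and 3, and 0.0105 and 0.0674 without ADP-CM replicates 1 and 2. It was also lost with plain library sizes (0.0117 in edgeR) and with DESeq2 (0.0359).

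Of the 22 receptor and R-spondin genes 16 were tested, 2 were raised and 2 lowered, and the median of the list was 0.02 on the log2 scale. The Frizzled receptors FZD8 (log2 fold change 0.49, standard error 0.056) and FZD10 (0.48, standard error 0.10) were raised, and FZD6 (-0.19, standard error 0.026), the receptor with the most reads, and FZD1 (-0.28, standard error 0.059) were lowered. All 4 held when any library was left out. The co-receptors on which DKK1 and the Kremens act did not pass, with log2 fold changes of -0.08 for LRP5 and 0.09 for LRP6 (edgeR's adjusted p-values 0.0461 and 0.055). Both were named after their values were seen, and LRP5 passed in 1 of the 6 fits with a library left out. RSPO1, RSPO2 and RSPO3, ligands of the LGR receptors, had no read in any library.

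Of the 21 genes of cytoplasmic transduction and the destruction complex 20 were tested, 6 were raised and 1 lowered, and the median of the list was 0.08 on the log2 scale. CTNNB1, which encodes beta-catenin and had the most reads of this list, rose from 868.7 ± 16.3 to 977.1 ± 23.7 CPM (SD, n = 3), 0.17 on the log2 scale (edgeR, adjusted p-value 2.72e-11). The Dishevelled genes DVL1 and DVL2, which pass the signal from Frizzled, had log2 fold changes of 0.29 and -0.16, and CSNK1E, a kinase of the pathway that overlaps another same-strand gene over 18.5% of its exonic length, had 0.15. The DVL2 call was lost without ADP-CM replicate 2 (-0.13, adjusted p-value 0.0113 by edgeR) and with DESeq2 (0.0169). All 13 nuclear partners of beta-catenin were tested, and 1 was raised and 0 lowered in edgeR. An unadjusted p under 0.05 in edgeR was found for 2 of them, beside 45% of all tested genes. By list, it was found for 3 of 4 other extracellular inhibitors, 6 of 10 ligand and secretion genes and 9 of 16 receptor genes. It was also found for 13 of 20 cytoplasmic genes and 12 of 14 other Wnt target genes, 45 of 77 in all. No list was tested as a set. The raised nuclear partner was PYGO1, a co-activator, with a log2 fold change of 0.49 that was lost without ADP-CM replicate 2 (0.39, adjusted p-value 0.0106 by edgeR). DESeq2 gave PYGO1 an adjusted p-value of 0.0113, short of the limit. BCL9L, the partner with the most reads, was at 263.3 ± 9.36 CPM in the control group and 265.0 ± 11.5 with ADP-CM (SD, n = 3).

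Of all tested genes, 13.5% were raised and 13% lowered. The 21 other Wnt target genes also went both ways, with 5 of 14 tested genes raised and 4 lowered (median 0.00 on the log2 scale). The raised genes included CD44, a cell surface receptor for hyaluronan, at 0.44 on the log2 scale (standard error 0.022), and the growth regulator MYC at 0.32 (standard error 0.023). VEGFA, an angiogenic factor, rose by 0.39 on the log2 scale with a standard error of 0.036. ASCL2, a transcription factor of intestinal stem cells, had a log2 fold change of -0.30, BAMBI, a decoy receptor for TGF-beta, -0.36, and EPHB3, an ephrin receptor, -0.46. CCND1, the G1 cyclin with the most reads on this list, had -0.07, a call that did not hold when control replicate 2 or 3 or ADP-CM replicate 1 was left out (adjusted p-values 0.0442, 0.0395 and 0.0356 by edgeR) or with DESeq2 (0.0155). Several of these genes answer to other pathways as well.

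**Figure D4:**
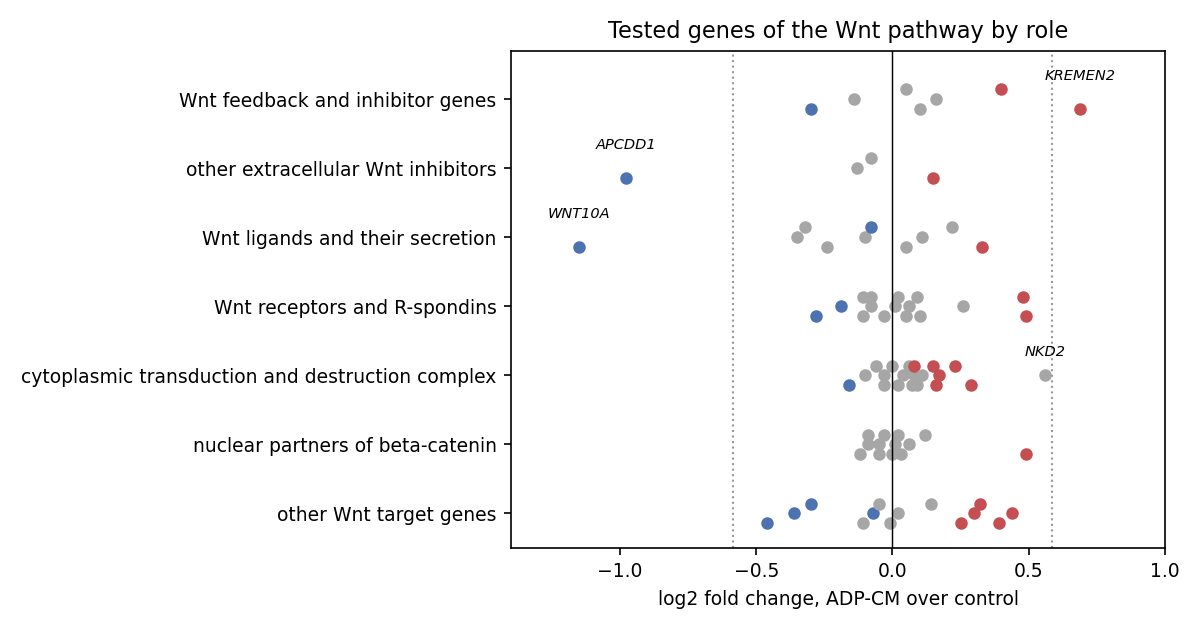
Log2 fold change of ADP-CM over control for each tested gene of the 10 feedback and inhibitor genes and of the 6 lists of other pathway genes, red where raised, blue where lowered and grey where the adjusted p-value was not under 0.01. Dotted lines mark a fold change of 1.5, and genes past 0.52 in size are named. Only KREMEN2, APCDD1 and WNT10A lie past the dotted lines.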

How the data were processed

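RNA of RL95-2 cells was sequenced as stranded poly(A) libraries of 50 bp single reads, 3 control and 3 ADP-CM. The deposited values are raw counts per RefSeq gene, which the authors made with TopHat2 (genome hg19) and HTSeq; versions and the strand setting are not given in the sources used here. HTSeq summary lines, 31.4% to 31.6% of all reads in control libraries and 32.9% to 33% in ADP-CM libraries, name no gene and were left out. Counts were normalized by TMM in edgeR 4.0.16 (R 4.3.3) and filtered by filterByExpr. ADP-CM was tested against control with edgeR's quasi-likelihood fit on 12663 genes (p-values adjusted by Benjamini-Hochberg), in place of the study's DESeq. CPM are scaled to reads on tested genes. DESeq2 1.42.0 and the other alternatives are in the closing section. The code was tested on simulated data. No 2 replicates agreed within sampling noise, but the excess was small, with a chi-square of 1.231 to 2.048 per degree of freedom for each pair. The common variation between replicates beyond counting noise was 1.67% in edgeR. These values do not show that the replicates were separate cultures. Positions and exon overlaps are from GENCODE release 44 on GRCh37, which has the coordinates of hg19. The members, lists and tests were chosen with earlier results of these data known. Named genes were the 10 members and, per list, up to 3 raised and 3 lowered genes with the smallest p and the gene with the highest mean CPM. PKMYT1, which overlaps KREMEN2, and the co-receptors LRP5 and LRP6 were named besides.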

Additional observations from a re-analysis of the deposited data

How the results depend on the processing

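The fall of KREMEN1 and the rise of KREMEN2 kept their direction and their side of the adjusted p-value limit under all 13 alternatives. These were other size factors, plain library sizes, DESeq2, a minimum of 10 counts per library or no minimum, an adjusted p-value of 0.05, a replicate block and each library left out. The number of the 10 genes raised was 2, and 1 with DESeq2 or, over the libraries left out in turn, 1 to 2, since RNF43 was lost. The number past a fold change of 1.5 was 1, and 0 to 1 over the libraries left out. The number lowered was 1 in all. The other pathway genes numbered 16 raised and 10 lowered, beside 13.5% and 13% of all tested genes. With DESeq2 they were 11 and 7, beside 8.39% and 7.77% of all genes it tested. At an adjusted p-value of 0.05 they were 22 and 14, for which the share of all genes was not counted. Over the libraries left out they were 13 to 16 and 8 to 13, and the share of all genes in those fits was not counted. BCL9L, near 0, ran from -0.0267 to 0.0309 over the libraries left out and reversed to -0.0199 without control replicate 3 and -0.0267 without ADP-CM replicate 3. The cause was not tested. Replicate numbers are shared between the groups, and nothing in the labels says that a number marks a shared culture or day. The deviations of libraries with the same number correlated weakly across genes (0.0726, 0.0141 and 0.0973), and those with different numbers ran from -0.0928 to 0.0261. Deviations were taken from the group mean, so the correlations of a library with those of the other group nearly cancel. The lower values for different numbers thus follow in part from the higher values for the same number. Of the 6 libraries, 5 correlated best with their own number, ADP-CM replicate 2 being the exception. Each correlation enters this count from both of its libraries, so the 6 outcomes are not independent. The correlations are at most a hint of pairing from the data, which was not tested and is too weak to treat the numbers as pairs. With the replicate block, 2 of the 10 genes were raised, 1 was lowered and 1 passed a fold change of 1.5, and the other pathway genes were 18 raised and 10 lowered. The share of all genes called with the block was not counted either. Depth limits AXIN2, TCF7 and LGR5, which could not be tested with the filter in place.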
